A study of Homo sapiens with 15 samples.

Results

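The comparison described here asks where the same short hairpin RNA (shRNA), hairpin 1812, changed gene expression differently in the established human glioma lines U87 and U251. For each gene the log2 fold change of hairpin 1812 over control in U251 was subtracted from the same fold change in U87. A positive difference therefore means that the hairpin raised the gene more, or lowered it less, in U87 than in U251. The comparison used 12 of the 15 RNA-seq libraries, 3 in each of 4 groups: U87 with hairpin 1812, U87 control, U251 with hairpin 1812 and U251 control. Both hairpin groups carry the genotype LAMP2A knockdown in the labels and both control groups the genotype WT. The protocol describes the lines as stably transfected. The labels name no control hairpin or empty vector, and they do not say whether a line is a clone, or whether the replicates came from separate cultures. P-values thus measure the spread between these libraries, which may be technical.

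LAMP2A is the splice form of the lysosomal membrane protein LAMP2 that acts as receptor in chaperone-mediated autophagy. In this pathway a cytosolic chaperone recognises a short motif in single proteins and hands them to LAMP2A, which passes them across the lysosomal membrane for breakdown. Glioma lines such as U87 and U251 are widely used as models of glioblastoma, although they derive from different tumours and differ widely in gene expression. A gene can respond to a hairpin in opposite ways in such lines, or respond in 1 line alone, and these are the patterns described below.

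Total counts per library lay between 14002652 and 18924072. SOX2, a neural stem cell transcription factor, lay at no more than 0.353 CPM (counts relative to library size, after scaling) in the 6 U87 libraries and at 98 to 203 CPM in the 6 U251 libraries. GFAP, the intermediate filament of astrocytes, lay at no more than 2.1 CPM in U87 and at 11.7 to 144 CPM in U251, so SOX2 and GFAP were far lower in U87. Of the other glioma and neural markers, NES lay at 24.8 to 62.1 CPM in U87 and 188 to 277 CPM in U251. SLC1A3 lay at 42 to 73.2 CPM in U87 and 58.5 to 102 CPM in U251. OLIG2 reached 1.61 CPM in U87 and 0.551 CPM in U251, and S100B 0.138 CPM in U87 and 1.58 CPM in U251. VIM, the intermediate filament vimentin, lay at 2808 to 6666 CPM. Of 15 marker genes of immune, endothelial, epithelial, neuronal and oligodendrocyte cells, MOG was at 0 in all 12 libraries and AIF1 in 11 of them. The markers summed to 40 to 51.5 CPM in U87 with hairpin 1812, 26.3 to 36.2 CPM in U87 control, 7.81 to 11.6 CPM in U251 with hairpin 1812 and 7.63 to 8.71 CPM in U251 control. The neuronal gene SNAP25 reached 30.4 CPM, the highest level of any of them, and their part in the results was not tested. Control replicates 2 and 3 of both lines stood apart from the other libraries. MALAT1, a long RNA retained in the nucleus, lay above 250 CPM, at up to 391 CPM, in these 4 libraries and at 32.7 to 88.7 CPM in the other 8. Between replicate 1 and the mean of replicates 2 and 3, 1158 genes differed over 2-fold within U87 with hairpin 1812, 5464 within U87 control, 574 within U251 with hairpin 1812 and 1556 within U251 control. The differences are therefore also given with control replicate 1 as the control of each line.

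LAMP2 (ENSG00000005893, chromosome X, 120426148 to 120469365), the gene whose A form the hairpin targets, was measured over all its splice forms together. LAMP2 in U87 lay at 257, 256 and 289 CPM with hairpin 1812, against 195, 294 and 292 CPM in control. These U87 groups overlapped. LAMP2 in U251 lay at 316, 314 and 328 CPM with hairpin 1812, against 659, 711 and 711 CPM in control, and all hairpin libraries lay below all controls. The log2 fold change of LAMP2 was 0.04 ± 0.15 (SE, adjusted p = 0.892) in U87, and LAMP2 fell in U251, where it was -1.12 ± 0.15 (SE, adjusted p = 0.00353). The difference of effects was 1.16 ± 0.21 (SE, adjusted p = 0.00931). It was 1.50 with control replicate 1 alone, and without U87 control replicate 1 it was 0.996, just under the 2-fold limit of a call. In these counts the label LAMP2A knockdown goes with lower total LAMP2 in U251 and with no detected change of total LAMP2 in U87, although with control replicate 1 alone the U87 fold change was 0.45 (adjusted p = 0.0215). The level of the A form alone was not measured. In bulk libraries fewer cells that express a gene and less RNA per cell cannot be told apart.

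The deposited table holds 60612 genes, of which 16841 had enough counts to be tested. A gene was called where edgeR's quasi-likelihood test gave an adjusted p under 0.05 and the difference of effects was at least 1 on the log2 scale, which is 2-fold. In all 545 genes were called, which is 3.24% of those tested. The difference was above 0 for 243 genes (1.44%) and below 0 for 302 genes (1.79%). With the p-value limit alone the shares were 2.19% above 0 and 2.32% below 0. The called genes were sorted by whether each line's own fold change had an adjusted p under 0.05, which is meant below where a gene is said to have risen or fallen. This held for 13.6% of all genes in U87 and for 0.992% in U251, so the classes for U87 alone and U251 alone draw on unequal numbers of passing genes. Of the called genes, 17 changed in both lines in opposite directions, 397 changed in U87 alone, 37 in U251 alone and 1 in both lines the same way. A further 90 were called in the difference although neither line passed by itself. No called gene was without counts in a line, and 3 had fewer than 10 counts over the 6 U87 libraries and were kept out of the ranking.

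The counts of calls depended on single libraries and on the library set. The fit shared its estimate of spread with the U251 hairpin 1813 libraries. With the 12 libraries of the comparison alone, 285 genes were called, 4 of them opposite. Leaving out 1 of the 12 libraries at a time gave 211 to 2019 called genes. The highest count, 2019, came without U87 control replicate 1 and the lowest, 211, without U251 hairpin 1812 replicate 2. The opposite class ranged from 0 genes, without U251 hairpin 1812 replicate 2 or 3, to 196 genes, without U87 control replicate 1. With control replicate 1 alone 683 genes (3.89%) were called above 0 and 308 genes (1.75%) below 0. These 991 calls held 231 of the 545, including 16 of the 17 opposite genes, 156 of the 397 genes of the U87 class and 24 of the 37 genes of the U251 class. In that fit the control of each line is 1 library, assumed to vary as the other groups do, so its calls and adjusted p are no check by replicates. Its tests within a line also sort genes otherwise: 4 of the 17 opposite genes passed in both lines there, CXCL8, ERMP1 and SERINC5 among the 12 named, and 10 passed in U87 alone. Of the 397 genes of the U87 class 210 passed in U87 alone there, and of the 37 of the U251 class 18 passed in U251 alone.

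**Figure D1:**
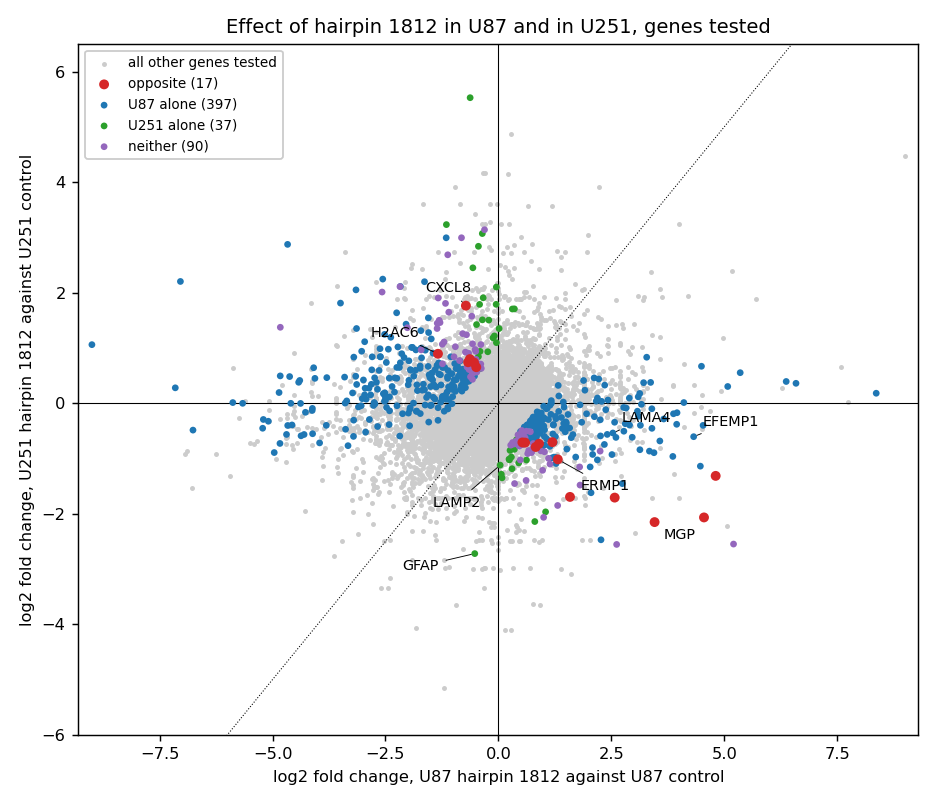
Each point is a gene, with the log2 fold change of hairpin 1812 over control in U87 on the horizontal axis and in U251 on the vertical axis, and colours mark the classes of the called genes. The 17 opposite genes lie in the upper left (6 genes) and lower right (11 genes) corners, and the dotted line marks equal effects. Values of 2 genes beyond 9 on the horizontal axis are drawn at its ends.

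Among the opposite genes, 6 fell in U87 and rose in U251, and the naming rule took 5 of them. They include a neutrophil chemokine and a stress transcription factor. CXCL8 (ENSG00000169429, chromosome 4, 73740541 to 73743716) encodes interleukin 8, a chemokine that draws neutrophils and whose gene is a textbook target of NF-kB and AP-1. The U87 levels of CXCL8 were 97.1, 75.8 and 75.7 CPM with hairpin 1812, against 167, 121 and 122 CPM in control. The U251 levels of CXCL8 were 569.6, 666 and 662 CPM with hairpin 1812, against 231, 165 and 163 CPM in control. All hairpin libraries lay below all controls in U87 and above all controls in U251. The log2 fold change was -0.72 ± 0.21 (SE, adjusted p = 0.0349) in U87 and 1.76 ± 0.21 (SE, adjusted p = 0.00162) in U251, a difference of -2.48 ± 0.30 (SE, adjusted p = 0.00119). DDIT3 (ENSG00000175197, chromosome 12, 57516588 to 57521737) encodes CHOP, a transcription factor induced late in the integrated stress response. U87 levels of DDIT3 were 15.7, 17.1 and 17.8 CPM with hairpin 1812, against 24, 26.8 and 22.8 CPM in control. U251 levels of DDIT3 were 63.4, 52.4 and 54.6 CPM with hairpin 1812, against 40.2, 31.5 and 30.7 CPM in control. The groups were again apart in both lines, in opposite directions. Its fold change was -0.54 ± 0.14 (SE, adjusted p = 0.0209) in U87 and 0.74 ± 0.14 (SE, adjusted p = 0.0261) in U251, a difference of -1.28 ± 0.20 (SE, adjusted p = 0.00375).

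The promoters of both genes are shown because they carry letters of the sites named above. The windows run from 250 bases before to 50 bases after the transcription start, from RefSeq on GRCh38.p14. The CXCL8 window is chr4:73740319-73740618, plus strand and the DDIT3 window is chr12:57520465-57520764, minus strand, both printed 5′ to 3′ along the gene. Capitals mark matches to TGANTCA, the AP-1 site, and in CXCL8 also to GGAANTTCC, a form of the NF-kB site. The CXCL8 matches begin at -137 (TGANTCA) and -91 (GGAANTTCC) relative to the start, and the DDIT3 match begins at -241.
CXCL8: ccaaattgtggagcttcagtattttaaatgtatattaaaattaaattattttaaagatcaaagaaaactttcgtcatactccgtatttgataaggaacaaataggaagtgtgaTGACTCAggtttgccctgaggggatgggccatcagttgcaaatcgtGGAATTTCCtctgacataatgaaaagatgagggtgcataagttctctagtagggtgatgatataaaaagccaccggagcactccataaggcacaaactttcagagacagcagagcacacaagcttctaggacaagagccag
DDIT3: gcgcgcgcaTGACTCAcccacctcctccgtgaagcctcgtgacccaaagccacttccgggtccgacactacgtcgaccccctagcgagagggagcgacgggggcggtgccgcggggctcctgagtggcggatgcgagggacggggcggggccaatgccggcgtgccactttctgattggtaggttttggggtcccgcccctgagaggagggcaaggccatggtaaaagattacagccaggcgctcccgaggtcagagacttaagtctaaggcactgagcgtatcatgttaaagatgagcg
Searched on both strands, TGANTCA occurs in 7.71% and GGAANTTCC in 0.965% of the 35116 RefSeq promoters of this length. The match describes the letters alone.

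The other named genes of this kind were H2AC6, MYEOV and C11orf68. H2AC6 (ENSG00000180573, chromosome 6, 26124145 to 26139116) is a histone H2A gene of the chromosome 6 cluster, and reads of its near-identical copies may be shared. In U87, H2AC6 had 6.55, 8.76 and 9.46 CPM with hairpin 1812, against 21.5, 20.3 and 20.8 CPM in control. In U251, H2AC6 had 66.1, 68.2 and 65.8 CPM with hairpin 1812, against 35.6, 37.2 and 34.9 CPM in control. The replicates of each group lay close together, and the difference was -2.23 ± 0.24 (SE, adjusted p = 5.01e-04), from -1.34 in U87 and 0.89 in U251. MYEOV (ENSG00000172927, chromosome 11, 69294151 to 69367726), a gene named for its overexpression in myeloma, had 19.1, 31.1 and 27.9 CPM in U87 with hairpin 1812, against 35.1, 42.5 and 43.4 CPM in U87 control. Levels of MYEOV in U251 were 42.5, 45.6 and 43.2 CPM with hairpin 1812, against 27.4, 24.1 and 24.1 CPM in control. Its groups did not overlap in either line, and the difference was -1.43 ± 0.23 (SE, adjusted p = 0.00462). C11orf68 (ENSG00000175573, chromosome 11, 65916810 to 65919062) had 50.5, 76.8 and 72.3 CPM in U87 with hairpin 1812, against 113, 102 and 102 CPM in U87 control. In U251 it had 51.2, 60.2 and 52 CPM with hairpin 1812, against 35.5, 32.1 and 30.1 CPM in control. Its difference was -1.41 ± 0.22 (SE, adjusted p = 0.00378). The differences of these 5 genes were called in all 12 fits that each left out 1 library. Without U251 hairpin 1812 replicate 2 or 3, however, 0 called genes passed in both lines in opposite directions. With control replicate 1 alone the differences were -2.47 for CXCL8, -1.01 for DDIT3, -2.30 for H2AC6, -1.11 for MYEOV and -1.39 for C11orf68. In that fit DDIT3, H2AC6 and C11orf68 did not pass in U251 (adjusted p = 0.143, 0.06 and 0.173), and MYEOV passed in neither line. The 6th opposite gene below 0 was GAS5, a noncoding RNA outside the naming rule, at a difference of -1.14.

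**Figure D2:**
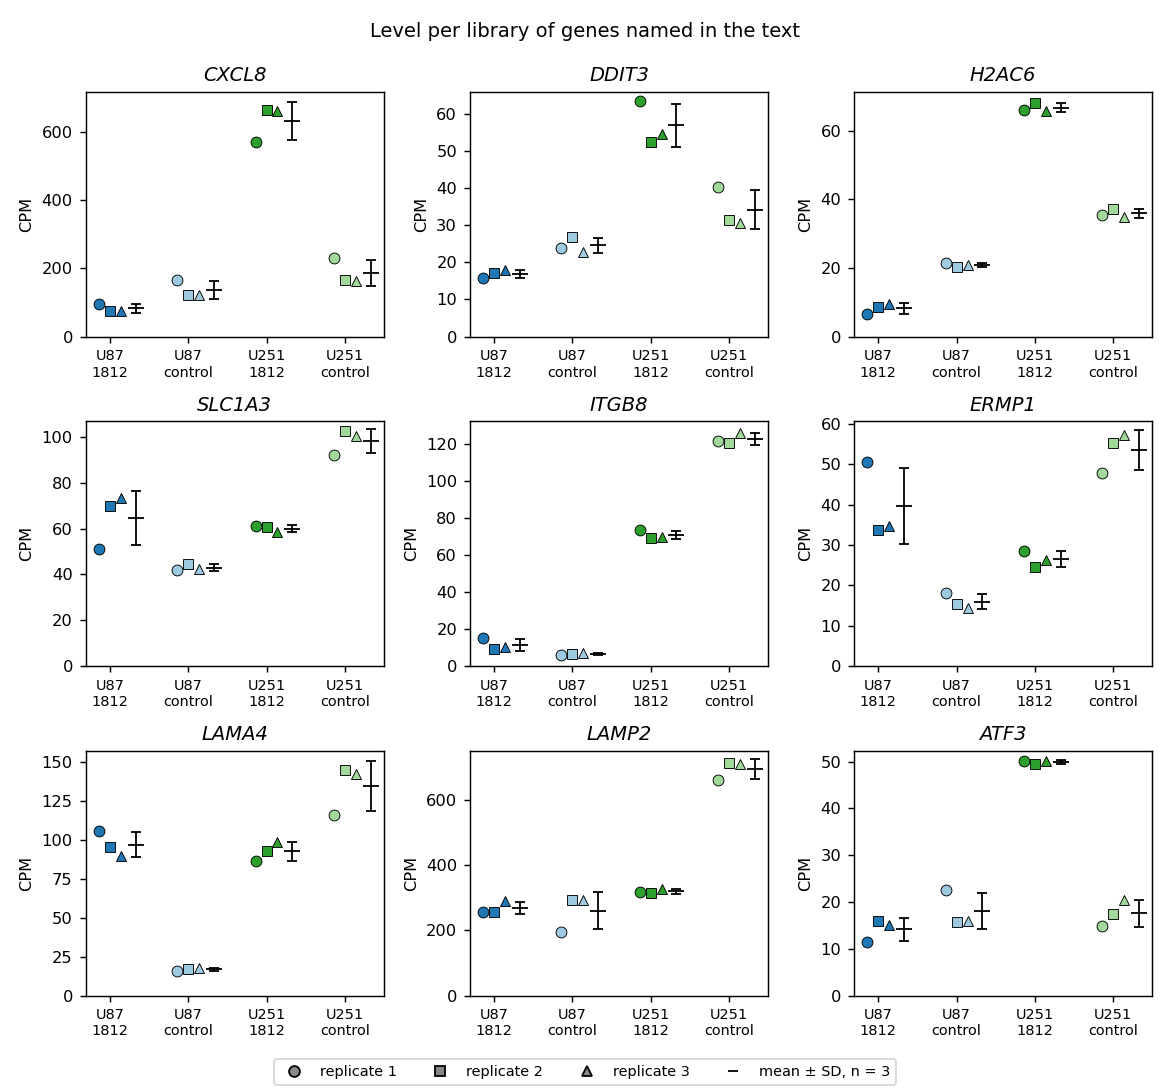
Each panel gives the level of 1 gene in CPM in the 12 libraries of the 4 groups, with the replicate number as the symbol and the mean ± SD of 3 libraries beside it. CXCL8, DDIT3 and H2AC6 fell in U87 and rose in U251, SLC1A3, ITGB8 and ERMP1 did the reverse, and LAMA4, LAMP2 and ATF3 passed the test in 1 line alone.

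In the other direction, 11 genes rose in U87 and fell in U251, and 7 of them are named. They include a glial glutamate transporter, an integrin and 2 proteins of immune signalling. SLC1A3 (ENSG00000079215, chromosome 5, 36606355 to 36688334) encodes the glutamate transporter GLAST of astrocytes. Levels of SLC1A3 in U87 were 51.1, 69.7 and 73.2 CPM with hairpin 1812, against 42, 44.6 and 42.2 CPM in control. SLC1A3 in U251 lay at 61.1, 60.6 and 58.5 CPM with hairpin 1812, against 92.4, 102 and 100.4 CPM in control. The hairpin groups of both lines thus ended at similar levels, from control levels that lay apart. The log2 fold change was 0.59 ± 0.13 (SE, adjusted p = 0.0117) in U87 and -0.71 ± 0.13 (SE, adjusted p = 0.0265) in U251, a difference of 1.30 ± 0.19 (SE, adjusted p = 0.00287). ITGB8 (ENSG00000105855, chromosome 7, 20330702 to 20415754) encodes integrin beta 8, which with the alpha V chain activates latent TGF-beta. In U87 it had 14.9, 9.23 and 10.2 CPM with hairpin 1812, against 5.86, 6.43 and 7.05 CPM in control. The U251 levels of ITGB8 were 73.4, 69.2 and 69.7 CPM with hairpin 1812, against 121, 120.3 and 126 CPM in control. It stayed far lower in U87 than in U251 in every library. Its fold change was 0.83 ± 0.17 (SE, adjusted p = 0.00751) in U87 and -0.79 ± 0.16 (SE, adjusted p = 0.031) in U251, a difference of 1.62 ± 0.23 (SE, adjusted p = 0.00287).

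PELI2 and MALT1 both act in signalling from immune receptors. PELI2 (ENSG00000139946, chromosome 14, 56117814 to 56301524) is a Pellino ubiquitin ligase of interleukin 1 and Toll-like receptor signalling. PELI2 in U87 lay at 10.7, 9.58 and 9.46 CPM with hairpin 1812, against 4.44, 4.91 and 3.65 CPM in control. U251 levels of PELI2 were 9.16, 9.72 and 9.66 CPM with hairpin 1812, against 15.2, 15.6 and 15.8 CPM in control. MALT1 (ENSG00000172175, chromosome 18, 58671465 to 58754477) is the paracaspase that carries antigen receptor signals to NF-kB. The U87 levels of MALT1 were 108, 67 and 71.9 CPM with hairpin 1812, against 45.1, 42.2 and 45.1 CPM in control. In U251, MALT1 had 61.9, 48.3 and 54.1 CPM with hairpin 1812, against 95.1, 87.5 and 90.7 CPM in control. Both genes had hairpin libraries above all controls in U87 and below all controls in U251. The differences were 1.90 ± 0.23 (SE, adjusted p = 0.00119) for PELI2 and 1.63 ± 0.23 (SE, adjusted p = 0.00287) for MALT1. ERMP1 (ENSG00000099219, chromosome 9, 5765076 to 5833117) is a metallopeptidase of the endoplasmic reticulum. U87 levels of ERMP1 were 50.5, 33.8 and 34.8 CPM with hairpin 1812, against 18, 15.4 and 14.5 CPM in control. Levels of ERMP1 in U251 were 28.4, 24.5 and 26.4 CPM with hairpin 1812, against 47.9, 55.4 and 57.3 CPM in control. The U87 hairpin replicates spread more widely than the other groups, and the difference was 2.33 ± 0.23 (SE, adjusted p = 3.08e-04). SERINC5 (ENSG00000164300, chromosome 5, 80111651 to 80256048), a membrane protein that limits the infectivity of retroviruses, had 78.4, 89.7 and 89.9 CPM in U87 with hairpin 1812, against 51.8, 61.4 and 65.4 CPM in U87 control. In U251 it had 82.8, 77.5 and 80.8 CPM with hairpin 1812, against 139, 130.4 and 125 CPM in control. Its difference was 1.24 ± 0.18 (SE, adjusted p = 0.00287).

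MGP (ENSG00000111341, chromosome 12, 14880864 to 14885857), matrix Gla protein, inhibits calcification of extracellular matrix and had the largest difference of the named opposite genes. In U87, MGP had 10.02, 2.82 and 1.83 CPM with hairpin 1812, against 0.471, 0.346 and 0.495 CPM in control. MGP in U251 lay at 2.52, 1.93 and 2.03 CPM with hairpin 1812, against 10.5, 9.81 and 8.53 CPM in control. The level of replicate 1 was several times that of the other U87 hairpin libraries. The difference was 5.61 ± 0.74 (SE, adjusted p = 0.00196), and without 1 library at a time it ranged from 4.55 to 6.00. The differences of the 7 genes were called in every leave-one-out fit. Their opposite class was not kept in each, as it held 0 genes without U251 hairpin 1812 replicate 2 or 3. With control replicate 1 alone the differences lay between 1.24 for SLC1A3 and 5.64 for MGP. In that fit SLC1A3, ITGB8, MGP, PELI2 and MALT1 did not pass in U251, at adjusted p of 0.0548 to 0.121. The 4 opposite genes above 0 outside the naming rule were ZNF423, ADAMTS15, COL14A1 and SLC26A4, with differences of 6.62, 6.12, 4.28 and 3.28. All but SLC26A4 had under 1 FPKM (a level per exon length and library size) in both U87 groups. All but ADAMTS15 had under 1 FPKM in both U251 groups. ADAMTS15 averaged 0.208 CPM in U87 with hairpin 1812 and 0 CPM in U87 control, so the size of its difference is imprecise.

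The ratio between the lines can be read from the same fit, as the log2 of the level in U87 over the level in U251. For LAMA4 this ratio was 0.07 with hairpin 1812 and -3.01 in controls. For PELI2 it was 0.06 with the hairpin and -1.84 in controls, for SERINC5 0.10 and -1.14, and for SLC1A3 0.11 and -1.20. These 4 genes thus had nearly equal levels in the lines with the hairpin and lower levels in U87 in controls. CXCL8 lay the other way, at -2.93 with the hairpin and -0.45 in controls, and DDIT3 at -1.75 and -0.48. Among all 545 called genes the ratio was nearer 0 with the hairpin for 245 genes (45%), against 47.9% of all genes tested. It was nearer 0 for 148 of the 243 genes with a difference above 0 (60.9%) and for 97 of the 302 below 0 (32.1%). The controls enter both the ratio and the difference, so these shares are a description with no test.

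**Figure D3:**
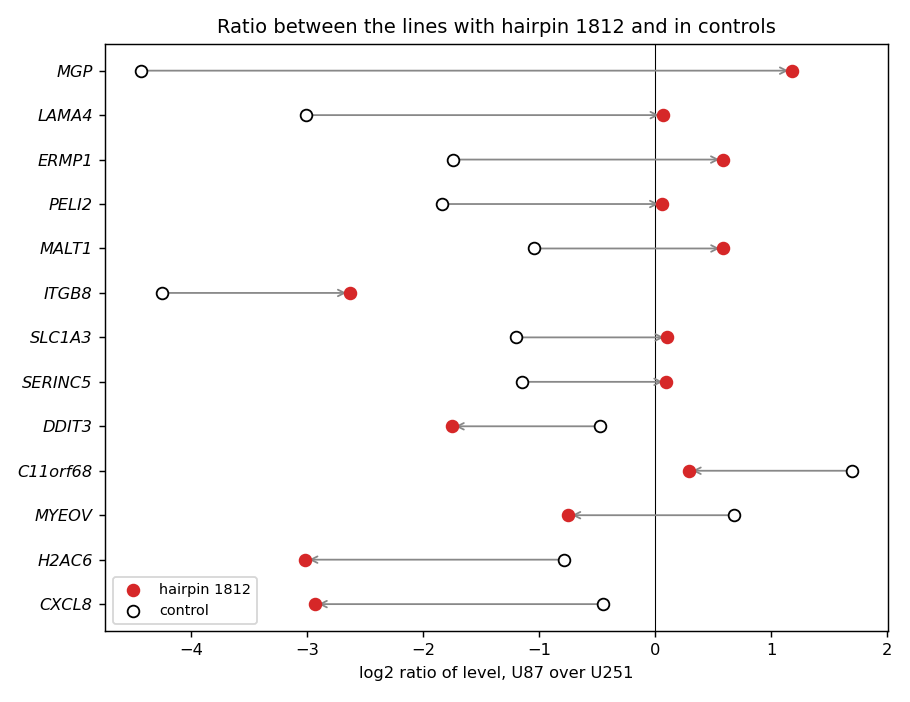
The horizontal axis is the log2 ratio of the level in U87 over that in U251, and for each gene a filled point gives the ratio with hairpin 1812 and an open point the ratio in controls. The filled points of LAMA4, PELI2, SLC1A3 and SERINC5 lie near 0, and those of CXCL8 and H2AC6 lie near -3.

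Most called genes changed in U87 alone, 170 of them with a difference above 0 and 227 below 0. For some named genes of this class the size of the U87 change depended on the control. U87 fold changes were -1.55 for LAMA1, 1.27 for ITGA7, -2.96 for NUDT11 and 0.57 for CCNB2. Against control replicate 1 alone they were -0.50, 0.51, -1.08 and 0.14, and that of CCNB2 in U251 was -0.65. LAMA4, SLC3A2 and TRIB3 went the other way, with larger U87 changes there, of 2.64, -1.43 and -1.78. With control replicate 1 alone 94 of the 170 and 62 of the 227 were called too. LAMA4 (ENSG00000112769, chromosome 6, 112107931 to 112254939), the laminin alpha 4 chain of basement membranes, had the smallest adjusted p of the named genes. Levels of LAMA4 in U87 were 106, 95.1 and 89.8 CPM with hairpin 1812, against 15.5, 17 and 17.6 CPM in control. The U251 levels of LAMA4 were 86.2, 93.1 and 98.5 CPM with hairpin 1812, against 116, 145 and 143 CPM in control. The U87 groups were far apart, with a fold change of 2.53 ± 0.13 (SE, adjusted p = 1.85e-07), and the U251 groups, also without overlap, gave -0.54 ± 0.12 (SE, adjusted p = 0.0549). The difference was 3.07 ± 0.18 (SE, adjusted p = 9.14e-07). EFEMP1 (ENSG00000115380, chromosome 2, 55865967 to 55924139) encodes fibulin 3, a secreted matrix glycoprotein. In U87 it had 54.8, 55.3 and 55.9 CPM with hairpin 1812, against 5.66, 1.8 and 0.866 CPM in control. U251 levels of EFEMP1 were 139.5, 113 and 112 CPM with hairpin 1812, against 183, 189.8 and 182 CPM in control. It rose in U87 with little spread between the hairpin libraries, while U251 held it at high levels in every library. The difference was 4.93 ± 0.52 (SE, adjusted p = 5.01e-04). RARRES2, the chemokine-like protein chemerin, had 25.1, 1.76 and 1.61 CPM in U87 with hairpin 1812, against 1.01, 0.138 and 0.124 CPM in U87 control. Replicate 1 of the hairpin group carried most of that mean. Its difference was 5.61 ± 1.34 (SE, adjusted p = 0.0304), it was not called in 7 of 12 leave-one-out fits, and it was 4.39 with control replicate 1 alone (adjusted p = 0.14).

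Of 4 named zinc finger genes on chromosome 19, ZNF253, ZNF431 and ZNF85 rose in U87 alone and ZNF416, described below, fell there. ZNF253 had 4.3, 4.47 and 4.18 CPM in U87 with hairpin 1812, against 0.673, 0.0692 and 0.124 CPM in U87 control. ZNF431 had 24, 17.1 and 19.9 CPM in U87 with hairpin 1812, against 6.33, 0.346 and 0.248 CPM in U87 control. ZNF85 had 10.02, 6.94 and 7.7 CPM in U87 with hairpin 1812, against 2.56, 0 and 0.186 CPM in U87 control. In each, control replicate 1 lay above the other controls and below the hairpin libraries. Their differences were 4.07 ± 0.58 (SE, adjusted p = 0.00287) for ZNF253, 3.54 ± 0.92 (SE, adjusted p = 0.0429) for ZNF431 and 3.19 ± 0.86 (SE, adjusted p = 0.0492) for ZNF85. With control replicate 1 alone these became 2.44, 1.58 and 1.56. In leave-one-out fits ZNF431 lost the call in 10 and ZNF85 in 11 of 12, both lost it with the 12 libraries alone, and ZNF85 lost it in DESeq2. Reads of related zinc finger genes may have been shared between them.

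The sizes of large differences below 0 in the U87 class depended on which control libraries were used. IL36B (ENSG00000136696, chromosome 2, 113022089 to 113052867), the cytokine interleukin 36 beta, had 6.04, 2.47 and 2.64 CPM in U87 with hairpin 1812, against 8.75, 137 and 139 CPM in U87 control. In U251, IL36B had 0.839, 5.58 and 4.19 CPM with hairpin 1812, against 0.175, 0.5 and 0.734 CPM in control. The levels of U87 control replicates 2 and 3 were far above that of replicate 1, which lay near the hairpin libraries. Its difference was -7.54 ± 1.29 (SE, adjusted p = 0.00662), and -5.50 with control replicate 1 alone, where the fold change was -1.24 in U87 (adjusted p = 0.166) and 4.26 in U251 (adjusted p = 0.0879). MARCKSL1, an actin-regulating membrane protein, had 0.771, 1.59 and 1.61 CPM in U87 with hairpin 1812, against 3.91, 34 and 31.6 CPM in U87 control, with the same order among the controls. Levels of MARCKSL1 in U251 were 30.3, 29 and 30.8 CPM with hairpin 1812, against 34.9, 31.9 and 31.9 CPM in control. Its difference was -3.99 ± 0.75 (SE, adjusted p = 0.0108), and -1.35 with control replicate 1 alone. ELFN2, a leucine-rich repeat membrane protein, had 0.257, 0.588 and 0.513 CPM in U87 with hairpin 1812, against 1.14, 17.8 and 20.4 CPM in U87 control. Its difference was -5.32 ± 0.98 (SE, adjusted p = 0.00966), and with control replicate 1 alone -1.53 (adjusted p = 0.145), no longer a call. The homeobox gene NKX6-1, the phosphatase gene NUDT11 and the zinc finger gene ZNF416 had differences of -4.26 ± 0.75 (SE, adjusted p = 0.00775), -4.07 ± 0.65 (SE, adjusted p = 0.00434) and -3.88 ± 0.59 (SE, adjusted p = 0.00361). With control replicate 1 alone they were -1.86 (adjusted p = 0.0595), -1.90 and -2.20, of which NUDT11 and ZNF416 were called there.

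In 37 genes the change passed the test in U251 alone, 22 with a difference below 0 and 15 above 0. Of the 18 named genes of this class, with control replicate 1 alone LAMP2, ATF3, HMCN1 and MAFF passed in both lines, FOLR3 and DENND11 in neither, and NFIB and GADD45A in U87 alone. Those below 0 include ATF3, OASL and IL36RN, which rose in U251. ATF3 (ENSG00000162772, chromosome 1, 212565334 to 212620777) is a transcription factor induced by many stresses. ATF3 in U87 lay at 11.4, 16 and 15.1 CPM with hairpin 1812, against 22.6, 15.7 and 16 CPM in control. In U251 it had 50.2, 49.4 and 50.1 CPM with hairpin 1812, against 14.8, 17.4 and 20.4 CPM in control. The U251 groups lay far apart and the U87 groups overlapped. Its fold change was -0.35 ± 0.18 (SE, adjusted p = 0.2) in U87 and 1.51 ± 0.18 (SE, adjusted p = 0.00142) in U251, a difference of -1.86 ± 0.25 (SE, adjusted p = 0.00204). OASL, an interferon-induced protein of antiviral defence, had 15.9, 11.2 and 8.36 CPM in U87 with hairpin 1812, against 15.2, 16.5 and 15.7 CPM in U87 control. OASL in U251 lay at 138, 89.6 and 72.1 CPM with hairpin 1812, against 18.9, 36 and 32 CPM in control. Its difference was -2.20 ± 0.43 (SE, adjusted p = 0.0128). BASP1 (ENSG00000176788, chromosome 5, 17065598 to 17276843), a membrane protein of growth cones, had 356, 391 and 395 CPM in U87 with hairpin 1812, against 340.4, 282 and 299 CPM in U87 control. The U251 levels of BASP1 were 20.6, 24.5 and 24.7 CPM with hairpin 1812, against 7.08, 6.96 and 7.4 CPM in control, so that the line with the higher level showed the smaller fold change, 0.31 in U87 against 1.70 in U251. Its difference was -1.40 ± 0.17 (SE, adjusted p = 0.00127).

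IL36RN, the antagonist of the interleukin 36 receptor, had 6.23, 9 and 11 CPM in U87 with hairpin 1812, against 8.75, 25.2 and 24.2 CPM in U87 control. U251 levels of IL36RN were 2.52, 12.3 and 12.6 CPM with hairpin 1812, against 0.351, 0.951 and 1.58 CPM in control. The difference was -4.38 ± 0.80 (SE, adjusted p = 0.00949). Its U251 hairpin replicate 1 and its U87 control replicate 1 each lay below the other libraries of their group. SCG5, a chaperone of a prohormone convertase, averaged 89.8 ± 19.5 CPM in U87 with hairpin 1812 and 92.7 ± 27 CPM in U87 control (SD, n = 3 each). SCG5 in U251 averaged 25.7 ± 11 CPM with hairpin 1812 and 5.98 ± 2.17 CPM in control. The difference was -2.15 ± 0.51 (SE, adjusted p = 0.0304), and the call was lost in 9 of 12 leave-one-out fits. FOLR3, a secreted folate receptor, averaged 1.94 ± 0.518 CPM in U87 with hairpin 1812 and 2.5 ± 0.563 CPM in U87 control. The U251 mean of FOLR3 was 2.21 ± 1.19 CPM with hairpin 1812 and 0.257 ± 0.0909 CPM in control. Its difference was -3.43 ± 0.71 (SE, adjusted p = 0.0182), lost in 4 of 12 leave-one-out fits and at an adjusted p of 0.0548 with control replicate 1 alone.

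Among the 15 genes that fell in U251 alone were adhesion, matrix and transcription factor genes. NFIB (ENSG00000147862, chromosome 9, 14081843 to 14398983), a nuclear factor I transcription factor of glial development, had 34.8, 24.6 and 28.4 CPM in U87 with hairpin 1812, against 12.2, 21.9 and 23 CPM in U87 control. In U251, NFIB had 36.8, 38.5 and 31.9 CPM with hairpin 1812, against 59.6, 76.9 and 82.1 CPM in control. The difference was 1.65 ± 0.30 (SE, adjusted p = 0.00931), and it was called in all 12 leave-one-out fits, but with control replicate 1 alone it passed in U87 (1.26, adjusted p = 0.00126) and not in U251 (-0.74, adjusted p = 0.051). HMCN1, the matrix protein hemicentin, had 43.5, 33.5 and 34.5 CPM in U87 with hairpin 1812, against 5.86, 26.8 and 31 CPM in U87 control, where control replicate 1 lay far below the others. Levels of HMCN1 in U251 were 5.93, 5.93 and 6.22 CPM with hairpin 1812, against 16.2, 29.8 and 33.8 CPM in control. The difference was 2.95 ± 0.60 (SE, adjusted p = 0.0161), and 4.08 with control replicate 1 alone. Without U251 hairpin 1812 replicate 2 its adjusted p was 0.0509. DAG1, the laminin receptor dystroglycan, averaged 168 ± 36.4 CPM in U87 with hairpin 1812 and 137 ± 39 CPM in U87 control. Mean DAG1 levels in U251 were 201 ± 39.4 CPM with hairpin 1812 and 394 ± 21.7 CPM in control. Its difference was 1.26 ± 0.30 (SE, adjusted p = 0.0296), lost in 7 of 12 leave-one-out fits. VASN, a membrane protein that binds TGF-beta, differed by 1.35 ± 0.26 (SE, adjusted p = 0.012), the tetraspanin TSPAN9 by 1.27 ± 0.26 (SE, adjusted p = 0.0173) and the DENN domain gene DENND11 by 1.43 ± 0.33 (SE, adjusted p = 0.0296). With control replicate 1 alone DAG1, VASN and DENND11 were no longer called, at 0.92, 1.00 and 0.72. In leave-one-out fits TSPAN9 lost the call in 2 and DENND11 in 9 of 12.

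Gene groups are described by how many members were called and by the median difference, beside the median of -0.05 over all genes tested. By unadjusted p under 0.05, 8.13% of all genes lay above 0 and 10.8% below 0, and DESeq2 called 367 genes above 0 and 535 below 0. Of 30 genes of the integrated stress and unfolded protein response, 4 were called below 0 and 0 above 0. By unadjusted p, 15 lay below 0 and 0 above, and DESeq2 called 6 below 0 and 0 above. The median difference was -0.60, made of a median fold change of -0.31 in U87 and 0.32 in U251, and it was -0.51 with control replicate 1 alone, with 5 called below 0 and 2 above. With that control the medians were -0.54 in U87 and -0.06 in U251, so the median rise in U251 was not seen there. Besides DDIT3 and ATF3 the members called with all controls were SLC3A2 and TRIB3. SLC3A2 (ENSG00000168003, chromosome 11, 62856102 to 62888875), the heavy chain of amino acid transporters, had 179.6, 161 and 140.4 CPM in U87 with hairpin 1812, against 430.2, 257 and 233 CPM in U87 control. In U251 it had 633, 634 and 589 CPM with hairpin 1812, against 413, 401 and 388 CPM in control. The groups of each line were apart, lower with the hairpin in U87 and higher in U251. The fold change passed in U87 at -0.94 ± 0.19 (SE, adjusted p = 0.00742) and was 0.63 ± 0.19 (SE, adjusted p = 0.138) in U251, a difference of -1.56 ± 0.27 (SE, adjusted p = 0.00712). TRIB3, a pseudokinase induced by the same response, averaged 4.74 ± 0.347 CPM in U87 with hairpin 1812 and 12.6 ± 3.13 CPM in U87 control. In U251, TRIB3 averaged 72.2 ± 21.6 CPM with hairpin 1812 and 58.4 ± 22.7 CPM in control. Its difference was -1.72 ± 0.41 (SE, adjusted p = 0.0297), lost in 9 of 12 leave-one-out fits.

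The SLC3A2 promoter is shown because it holds the letters TGANTCA, as that of DDIT3 does. These letters occur in 4 of the 52 promoters of named genes that could be searched. This is close to their share of 7.71% over all promoters, so the count is no trait of the named genes. The SLC3A2 window is chr11:62881449-62881748, plus strand, from RefSeq on GRCh38.p14. As in the other windows shown, its transcription start lies inside the gene as the deposited table gives it. Capitals mark TGANTCA at -37 and, on the other strand, TGATGNAA at 38, the core of a site that C/EBP-ATF factors bind and that 3.62% of promoters hold.
SLC3A2: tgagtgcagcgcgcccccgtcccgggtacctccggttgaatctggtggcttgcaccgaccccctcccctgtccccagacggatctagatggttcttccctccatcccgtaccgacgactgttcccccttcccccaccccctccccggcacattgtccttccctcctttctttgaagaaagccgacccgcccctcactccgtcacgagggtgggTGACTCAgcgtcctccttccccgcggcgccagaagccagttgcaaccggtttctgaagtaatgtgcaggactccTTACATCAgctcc

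Genes of NF-kB signalling and inflammatory cytokines had a median difference of -0.81, with medians of -0.41 in U87 and 0.45 in U251. Of 27 tested 5 were called below 0 and 1 above 0, and with control replicate 1 alone 8 were called below 0 and the median was -1.42. Called below 0 were CXCL8, IL36B, CXCL3 and IL1A. The other member below 0 was CCL20, at -3.24, and the member above 0 was CCL2, at 3.07, both chemokines that fall outside the naming rule and are named after their values were seen. Neither passed in either line by itself. CXCL3, a chemokine of the same neutrophil-drawing family whose near-identical neighbours may share its reads, had 5.33, 2.23 and 2.49 CPM in U87 with hairpin 1812, against 4.24, 5.53 and 5.38 CPM in U87 control. CXCL3 in U251 lay at 15.3, 22.9 and 25.8 CPM with hairpin 1812, against 4.74, 9.11 and 7.57 CPM in control. Neither line passed by itself, and the difference was -2.17 ± 0.54 (SE, adjusted p = 0.0361). IL1A, the cytokine interleukin 1 alpha, averaged 1.36 ± 0.505 CPM in U87 with hairpin 1812 and 3.24 ± 1.6 CPM in U87 control. IL1A averaged, in U251, 3.5 ± 1.02 CPM with hairpin 1812 and 1.67 ± 0.468 CPM in control. Its difference was -2.31 ± 0.59 (SE, adjusted p = 0.0407). In leave-one-out fits CXCL3 lost the call in 10 and IL1A in 11 of 12, and IL1A was -1.42 with control replicate 1 alone (adjusted p = 0.229). The CXCL3 window, chr4:74038640-74038939, minus strand, is shown because it holds the same 9 letters GGAATTTCC as CXCL8, here at -78.
CXCL3: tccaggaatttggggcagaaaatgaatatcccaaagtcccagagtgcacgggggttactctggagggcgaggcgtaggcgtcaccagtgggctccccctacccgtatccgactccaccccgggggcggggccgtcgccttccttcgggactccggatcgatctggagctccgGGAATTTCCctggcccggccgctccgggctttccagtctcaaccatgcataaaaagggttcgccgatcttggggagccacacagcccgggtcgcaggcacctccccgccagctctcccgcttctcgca

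Of 27 immediate early and AP-1 genes 2 were called below 0, ATF3 and MAFF, and 0 above 0. By unadjusted p 7 lay below 0 and 0 above, and DESeq2 called 4 and 0. The median difference was -0.56. MAFF, a small Maf transcription factor, had 29.9, 29.3 and 29.8 CPM in U87 with hairpin 1812, against 44.9, 27 and 22.8 CPM in U87 control. The U251 levels of MAFF were 53.3, 50.2 and 50.1 CPM with hairpin 1812, against 26.4, 20.6 and 19.1 CPM in control. It rose in U251, the U87 groups overlapped, and its difference of -1.31 ± 0.29 (SE, adjusted p = 0.0222) was lost in 8 of 12 leave-one-out fits.

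Among interferon response genes 3 of 34 were called below 0 and 0 above, with 5 and 0 by unadjusted p and 3 and 0 by DESeq2. The median difference was -0.13, and -0.65 with control replicate 1 alone. ISG15 (ENSG00000187608, chromosome 1, 1001138 to 1014540), an interferon-induced ubiquitin-like protein, had 11.9, 8.17 and 7.99 CPM in U87 with hairpin 1812, against 13.2, 9.82 and 7.49 CPM in U87 control. U251 levels of ISG15 were 610.4, 578 and 567 CPM with hairpin 1812, against 249.6, 259 and 264 CPM in control. U251 thus held it at far higher levels than U87 in all libraries, and it rose there alone. Its difference was -1.30 ± 0.30 (SE, adjusted p = 0.0281), lost in 8 of 12 leave-one-out fits and -1.73 with control replicate 1 alone. USP18, which removes ISG15 from proteins, averaged 4.43 ± 0.412 CPM in U87 with hairpin 1812 and 8.04 ± 3.29 CPM in U87 control. In U251 it averaged 43 ± 7.35 CPM with hairpin 1812 and 25.2 ± 3.34 CPM in control. Its difference was -1.63 ± 0.44 (SE, adjusted p = 0.0487), and it was not called in 11 of 12 leave-one-out fits. Of 17 genes of MHC class I presentation 1 was called below 0, against 5 and a median of -0.87 with control replicate 1 alone. The gene was HLA-F, which averaged 5.91 ± 0.336 CPM in U87 with hairpin 1812 and 9.24 ± 2.64 CPM in U87 control. HLA-F in U251 averaged 95 ± 12.4 CPM with hairpin 1812 and 57.7 ± 3.1 CPM in control. Its difference was -1.36 ± 0.31 (SE, adjusted p = 0.0244), lost in 7 of 12 leave-one-out fits. The ISG15 promoter, chr1:1013247-1013546, plus strand, is shown because it holds the core letters of the interferon-stimulated response element, found in 3.57% of promoters, at -113 and at -107. Capitals mark these overlapping matches.
ISG15: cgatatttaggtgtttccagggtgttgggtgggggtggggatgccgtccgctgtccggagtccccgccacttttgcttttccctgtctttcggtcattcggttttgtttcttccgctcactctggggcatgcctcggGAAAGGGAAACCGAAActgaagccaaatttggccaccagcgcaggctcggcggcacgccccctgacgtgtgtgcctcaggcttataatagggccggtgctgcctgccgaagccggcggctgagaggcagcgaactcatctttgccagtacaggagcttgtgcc

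Of 31 fibrillar collagens and matrix glycoproteins 5 were called above 0 and 1 below, and the median difference was 0.44. The median fold changes were -0.16 in U87 and -0.57 in U251, below 0 in both lines. With control replicate 1 alone they were 0.74 in U87 and -0.13 in U251, so the direction in U87 depended on the control used. COL6A1 (ENSG00000142156, chromosome 21, 45981769 to 46005050), a collagen VI chain, had 1335, 1005 and 946 CPM in U87 with hairpin 1812, against 574, 634 and 621 CPM in U87 control. In U251, COL6A1 had 137, 146 and 133 CPM with hairpin 1812, against 184, 262 and 253 CPM in control. It rose in U87, and the U251 change was -0.75 ± 0.17 (SE, adjusted p = 0.0578), which gave a difference of 1.60 ± 0.25 (SE, adjusted p = 0.00378). BGN, the proteoglycan biglycan, lay at the edge of detection in U87, with 0.45, 0.764 and 0.513 CPM in U87 with hairpin 1812, against 0.0673, 0.0692 and 0.124 CPM in U87 control. The U251 mean of BGN was 0.492 ± 0.113 CPM with hairpin 1812 and 2.92 ± 1.45 CPM in control. Its difference was 5.17 ± 1.08 (SE, adjusted p = 0.0182), and it was not called with control replicate 1 alone (adjusted p = 0.109). Of 23 laminin and basement membrane genes 3 were called above 0 and 2 below, and 1 each way with control replicate 1 alone. The median difference of this list was 0.26, from medians of -0.45 in U87 and -0.54 in U251. With control replicate 1 alone the line medians were 0.23 in U87 and -0.16 in U251. Apart from LAMA4, the laminin chain LAMA5 averaged 30.1 ± 19 CPM in U87 with hairpin 1812 and 9.18 ± 2.65 CPM in U87 control. Mean LAMA5 levels in U251 were 69.3 ± 5.59 CPM with hairpin 1812 and 136 ± 55.7 CPM in control, and the difference was 2.69 ± 0.56 (SE, adjusted p = 0.0184). LAMA1 averaged 10.9 ± 1.24 CPM in U87 with hairpin 1812 and 31.7 ± 14.2 CPM in U87 control. In U251, LAMA1 averaged 1.3 ± 0.224 CPM with hairpin 1812 and 0.529 ± 0.137 CPM in control, and the difference was -2.82 ± 0.57 (SE, adjusted p = 0.0152). COL4A1, a collagen IV chain, averaged 0.641 ± 0.207 CPM in U87 with hairpin 1812 and 0.174 ± 0.0641 CPM in U87 control. COL4A1 averaged, in U251, 129 ± 11.8 CPM with hairpin 1812 and 287 ± 111 CPM in control. Its difference was 2.95 ± 0.70 (SE, adjusted p = 0.0304), lost in 10 of 12 leave-one-out fits. LAMA5 lost its call in 5 and LAMA1 in 1 of them, and LAMA5 and COL4A1 were not called with control replicate 1 alone.

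Of 16 integrins 4 were called above 0 and 2 below, ITGB8 among those above 0. ITGA7 (ENSG00000135424, chromosome 12, 55684568 to 55716043), a laminin-binding chain, had 108, 68.4 and 67.7 CPM in U87 with hairpin 1812, against 56.8, 23 and 21.5 CPM in U87 control. Levels of ITGA7 in U251 were 17.5, 17.5 and 16.6 CPM with hairpin 1812, against 29.6, 39.1 and 33.5 CPM in control. Control replicate 1 of U87 lay above the other U87 controls, and the difference was 2.25 ± 0.43 (SE, adjusted p = 0.012), or 1.29 with control replicate 1 alone. ITGB4, the integrin chain of hemidesmosomes, averaged 0.972 ± 0.0243 CPM in U87 with hairpin 1812 and 0.78 ± 0.295 CPM in U87 control. In U251 it had 79.9, 79.8 and 72.3 CPM with hairpin 1812, against 162, 187 and 179 CPM in control. It fell in U251 alone, and the difference was 1.49 ± 0.30 (SE, adjusted p = 0.0162). ITGA4, a chain that binds fibronectin and VCAM1, had 0.257, 0.47 and 0.733 CPM in U87 with hairpin 1812, against 1.41, 12.5 and 11.4 CPM in U87 control. In U251 it averaged 12.8 ± 0.84 CPM with hairpin 1812 and 18.8 ± 2.61 CPM in control. Its difference of -3.56 ± 0.79 (SE, adjusted p = 0.0235) was -1.25 with control replicate 1 alone (adjusted p = 0.132), and the call was lost in 8 of 12 leave-one-out fits.

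Of 14 astrocyte markers 2 were called above 0 and 1 below. GFAP (ENSG00000131095, chromosome 17, 44903159 to 44916937) had 1.28, 1.59 and 1.03 CPM in U87 with hairpin 1812, against 1.68, 1.87 and 2.1 CPM in U87 control. GFAP in U251 lay at 26.1, 15 and 11.7 CPM with hairpin 1812, against 144, 107 and 96.8 CPM in control, a log2 fold change of -2.72 ± 0.27 (SE, adjusted p = 2.68e-04). The comparison thus sets a fall in U251 beside a line that holds little GFAP. Its difference was 2.20 ± 0.44 (SE, adjusted p = 0.0152), with an adjusted p of up to 0.0481 in leave-one-out fits. The other marker above 0 was SLC1A3. NDRG2, a gene of mature astrocytes, averaged 2.26 ± 0.294 CPM in U87 with hairpin 1812 and 8.79 ± 1.92 CPM in U87 control. NDRG2 in U251 averaged 1.73 ± 0.386 CPM with hairpin 1812 and 1.88 ± 0.74 CPM in control. Its difference was -1.85 ± 0.43 (SE, adjusted p = 0.0296), lost in 9 of 12 leave-one-out fits.

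Genes of cell division had median differences above 0. Of 36 DNA replication genes 3 were called above 0 and 0 below, with 11 and 0 by unadjusted p and 3 and 0 by DESeq2, and the median difference was 0.40. Of 31 mitosis genes 3 were called above 0 and 0 below, with 15 and 0 by unadjusted p and 5 and 0 by DESeq2. The median difference of the mitosis genes was 0.45, from 0.33 in U87 and -0.25 in U251, and 8 of the 31 passed the p-value limit alone. POLA1, the catalytic subunit of the polymerase that primes replication, averaged 73.5 ± 7.13 CPM in U87 with hairpin 1812 and 42.2 ± 3.15 CPM in U87 control. The U251 mean of POLA1 was 30.9 ± 3.17 CPM with hairpin 1812 and 38 ± 4.24 CPM in control. Its difference was 1.10 ± 0.19 (SE, adjusted p = 0.00695). MCM10, a replication initiation factor, and CCNE2, a cyclin of S phase entry, rose in U87 as well, with differences of 1.04 ± 0.22 (SE, adjusted p = 0.0208) and 1.06 ± 0.25 (SE, adjusted p = 0.0311). The mitosis genes called were KIF20A, a mitotic kinesin, at 1.03 ± 0.24 (SE, adjusted p = 0.0281), NUSAP1, a spindle protein, at 1.22 ± 0.30 (SE, adjusted p = 0.0361), and CCNB2, a B cyclin, at 1.00 ± 0.26 (SE, adjusted p = 0.0414). POLA1 was called in all leave-one-out fits, and the calls of the others were lost in 5 (MCM10), 8 (CCNE2), 8 (KIF20A), 10 (NUSAP1) and 11 (CCNB2) of 12. Against control replicate 1 alone, the median of the replication genes was 0.17 and that of the mitosis genes 0.58. Replication genes had median fold changes of 0.44 in U87 and 0.05 in U251 with all controls. With that control they were -0.02 and -0.15, so the median rise in U87 was not seen there. The U87 changes of POLA1, MCM10 and CCNE2 were still 0.87, 0.84 and 1.10. Mitosis genes had medians of 0.21 in U87 and -0.29 in U251 there.

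Targets of p53, the tumour suppressor that answers DNA damage, had a median difference of -0.53, with medians of -0.41 in U87 and 0.06 in U251. Of 25 tested 3 were called below 0 and 0 above, with 8 and 0 by unadjusted p and 4 and 0 by DESeq2. GADD45A (ENSG00000116717, chromosome 1, 67685201 to 67688334), a growth arrest gene that the stress response also induces, had 58.5, 49.3 and 51.5 CPM in U87 with hairpin 1812, against 76.5, 67.6 and 67.1 CPM in U87 control. The U251 levels of GADD45A were 226, 213 and 212 CPM with hairpin 1812, against 144, 98.6 and 97.4 CPM in control. It rose in U251, its U87 fold change was -0.41 ± 0.17 (SE, adjusted p = 0.122), and the difference was -1.34 ± 0.24 (SE, adjusted p = 0.00775). Against control replicate 1 alone it passed in U87 (-0.53, adjusted p = 0.0341) and not in U251 (0.59, adjusted p = 0.115). PHLDA3, an inhibitor of AKT, averaged 96.1 ± 8.35 CPM in U87 with hairpin 1812 and 157 ± 5.17 CPM in U87 control. Mean PHLDA3 levels in U251 were 29.9 ± 0.872 CPM with hairpin 1812 and 21 ± 6.67 CPM in control. Its difference was -1.21 ± 0.25 (SE, adjusted p = 0.0182), lost in 5 of 12 leave-one-out fits. TP53I3 differed by -1.35 ± 0.36 (SE, adjusted p = 0.0484), lost in 9 of them, and by -0.48 with control replicate 1 alone.

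The 13 mitochondrially encoded genes had the highest median difference of the lists, 0.87, from 0.06 in U87 and -0.82 in U251. Of these 2 were called above 0 and 0 below, with 4 and 0 by unadjusted p and 2 and 0 by DESeq2. MT-CO3 (ENSG00000198938, chromosome MT, 9207 to 9990), a subunit of cytochrome oxidase, had 5676, 4603 and 4430.0 CPM in U87 with hairpin 1812, against 2136, 3760.2 and 3489 CPM in U87 control. U251 levels of MT-CO3 were 1213, 1524 and 1405 CPM with hairpin 1812, against 2328, 2836 and 2633 CPM in control. The groups were apart in both lines in opposite directions although neither line passed by itself, and the difference was 1.56 ± 0.29 (SE, adjusted p = 0.0108). MT-CO2, another subunit of the enzyme, differed by 1.08 ± 0.29 (SE, adjusted p = 0.0465), lost in 11 of 12 leave-one-out fits. U87 control replicate 1 lay below the other U87 controls for both genes. Set against control replicate 1 alone, 1 library a line, the median difference was 1.43, from 1.26 in U87 and -0.15 in U251. Which line held the larger median change thus depended on the control used. None of the 35 nuclear-encoded genes of the respiratory chain was called in edgeR or DESeq2, 0 lay above 0 and 2 below by unadjusted p, and their median was -0.14.

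Of 21 genes of chaperone-mediated autophagy 2 were called above 0, LAMP2 and GFAP, and 0 below, with 3 and 0 by unadjusted p and 2 and 0 by DESeq2. Of 32 lysosome genes 2 were called above 0, LAMP2 and CTSK, and 1 below. CTSK, the collagen-cutting protease cathepsin K, had 555, 413 and 421 CPM in U87 with hairpin 1812, against 248, 247 and 249 CPM in U87 control. In U251, CTSK averaged 3.69 ± 0.517 CPM with hairpin 1812 and 5.15 ± 1.18 CPM in control. It rose in U87, where its level is far higher, and the difference was 1.38 ± 0.27 (SE, adjusted p = 0.0126). It was not called with control replicate 1 alone. Of 32 macroautophagy genes 0 were called in edgeR or DESeq2, with 2 above 0 and 3 below 0 by unadjusted p, and the median was -0.08.

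Of 24 hypoxia genes 1 was called in each direction. LOXL2, a lysyl oxidase, differed by 1.01 ± 0.26 (SE, adjusted p = 0.0407), and ANGPTL4, a secreted inhibitor of lipoprotein lipase, by -1.71 ± 0.40 (SE, adjusted p = 0.0281), and leave-one-out fits lost the calls in 10 and 7 of 12. Of 28 TGF-beta and BMP genes 1 was called above 0 and 2 below. The BMP antagonist CHRDL1 had 37.8, 27.5 and 28.3 CPM in U87 with hairpin 1812, against 6.6, 1.73 and 1.3 CPM in U87 control, a difference of 2.45 ± 0.57 (SE, adjusted p = 0.0281). U251 levels of CHRDL1 were 15, 19.1 and 16.5 CPM with hairpin 1812, against 7.48, 10.8 and 10.1 CPM in control. All hairpin libraries thus lay above all controls in U251 too, although its fold change of 0.83 did not pass there (adjusted p = 0.314). Against control replicate 1 alone the CHRDL1 fold changes were 2.24 in U87 and 1.17 in U251. ID4, a repressor of helix-loop-helix factors, had 0.899, 0.353 and 0.293 CPM in U87 with hairpin 1812, against 1.68, 8.02 and 6.75 CPM in U87 control, a difference of -2.91 ± 0.67 (SE, adjusted p = 0.0266). INHBA, the activin A subunit, had 0, 0.0588 and 0.22 CPM in U87 with hairpin 1812, against 0.202, 3.04 and 3.71 CPM in U87 control, a difference of -5.10 ± 1.19 (SE, adjusted p = 0.0285). For all 3 genes U87 control replicate 1 lay nearer the U87 hairpin libraries than the other U87 controls did. With control replicate 1 of each line alone the differences were smaller, at 1.07, -0.80 and -2.56. Of 19 neural stem and glioma factors 1 was called, the POU factor POU3F2, at 1.90 ± 0.49 (SE, adjusted p = 0.0429). Of 6 nuclear-retained RNAs 1 was called, SNHG14, at -2.25 ± 0.56 (SE, adjusted p = 0.0361), and -0.71 with control replicate 1 alone. The median of these RNAs was -1.22, and 0.03 with control replicate 1 alone. Leave-one-out fits lost the calls of CHRDL1, ID4, INHBA, POU3F2 and SNHG14 in 8, 8, 10, 9 and 11 of 12. Glycolysis, cholesterol synthesis, NRF2 target, proteasome and ribosomal protein genes had 0 calls in edgeR. By unadjusted p the genes above and below 0 numbered 0 and 1 of 20, 1 and 1 of 23, 2 and 4 of 23, 0 and 3 of 32, and 0 and 0 of 42 in that order, and DESeq2 called 1 cholesterol and 1 NRF2 gene, both below 0. The 8 markers of other cell types that could be tested had 0 calls in edgeR, 1 above 0 by unadjusted p and 1 by DESeq2.

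**Figure D4:**
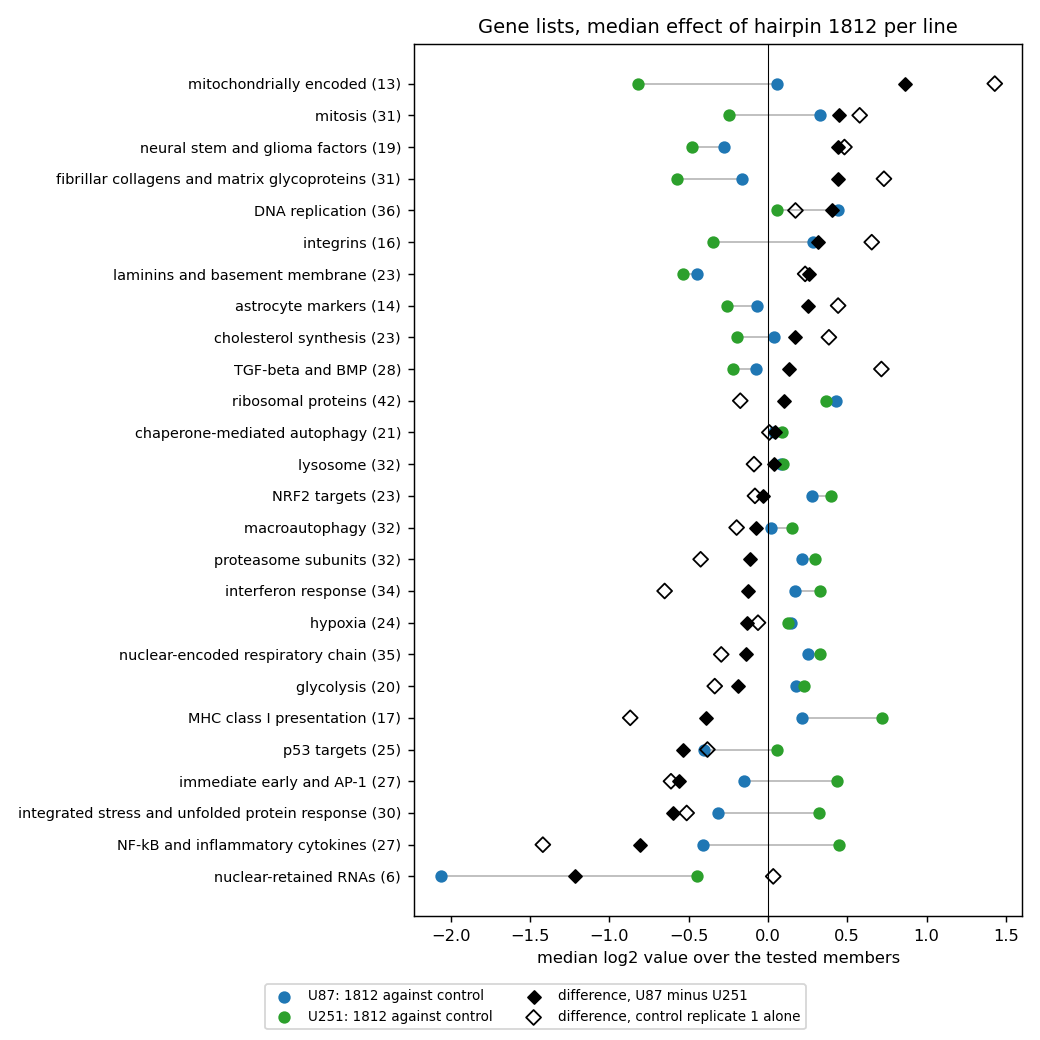
For each gene list, with the number of members tested in brackets, points give the median log2 fold change of hairpin 1812 over control in U87 and in U251, filled diamonds the median difference of effects, and open diamonds the same with control replicate 1 alone. NF-kB, stress response, AP-1 and p53 lists have filled and open diamonds below 0, mitochondrially encoded, mitosis and matrix lists above 0, and the nuclear-retained RNAs have a median of -1.22 from all controls and 0.03 from control replicate 1.

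**Figure D5:**
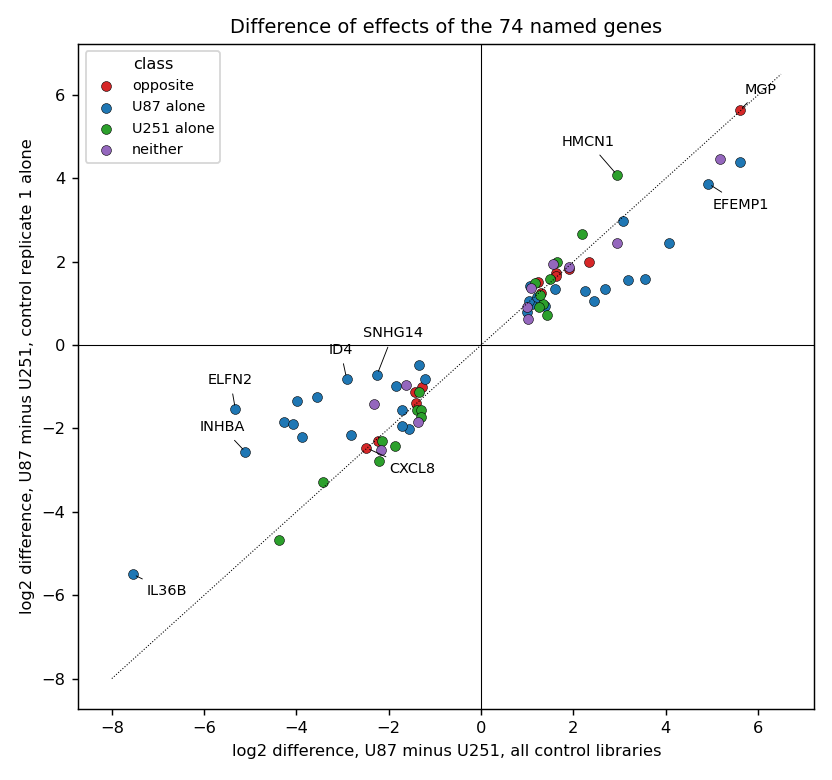
Each point is one of the 74 named genes, with its difference of effects from all control libraries on the horizontal axis and from control replicate 1 alone on the vertical axis. All points keep their sign, and the points farthest from the dotted line of equality are genes of the U87 class such as ELFN2 and INHBA.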

How the data were processed

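Libraries marked the strand and had ribosomal RNA removed, per the labels' protocols. The authors' deposited table gives raw counts and FPKM per gene. Per the submitters' processing notes the tools were bcl2fastq 2.17.1.14, cutadapt 1.9.1, HISAT2 2.0.1, HTSeq 0.6.1, bedtools 2.17.0 and DESeq2, on GRCh38. The strand setting of the counting and the annotation used for it are not given in the sources used here, so overlapping antisense genes cannot be told apart. The protocols name more than 1 extraction method and sequencer without assigning libraries. The deposited FPKM, which matched values recomputed from the counts within 0.005, served for a filter on named genes.

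Counts were tested with edgeR 4.0.16 in R 4.3.3 (TMM, filterByExpr, 5 group means over all 15 libraries, two-sided quasi-likelihood tests, Benjamini-Hochberg adjustment over 16841 genes, 10 residual and 4.52 prior degrees of freedom). SE is the absolute log2 value divided by the square root of F. CPM values use TMM library sizes. The fit was tested on simulated data with known changes. DESeq2 1.42.0, another scaling, no filter, the 12 libraries alone, a replicate block, other control sets, a library type term and leaving out each library were alternatives.

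The comparison, its markers and the gene lists were chosen with earlier results of these data known. Beside LAMP2 and 5 marker genes, the text names per class and direction the 6 protein-coding genes (by GENCODE 29) with the largest difference among called genes with at least 10 counts over the 6 libraries of each line, at least 1 FPKM in the higher group of each line, and hairpin and control libraries apart in each line that changed, and up to 4 called members per list, of which 1 is not reported here. ZNF423, ADAMTS15, COL14A1, SLC26A4 and GAS5 are named beyond it to complete the opposite class. No column of per-sample values lacked a sample. Promoters came from RefSeq, matched by symbol for 52 of the 74 named genes. Motifs searched on both strands were TGANTCA (AP-1), TGATGNAA (C/EBP-ATF), GGAANTTCC with its variant GGGANTTCC (NF-kB), the E-box CACGTG and the core of the interferon-stimulated response element. The depth of 14002652 to 18924072 counts per library sets the precision, which is lowest for genes under 1 CPM.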

Additional observations from a re-analysis of the deposited data

Results flagged for a closer look

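The effect of hairpin 1812 differed between U87 and U251, by the test of the difference itself in edgeR, for each of the 74 named genes, and all values here are log2 differences of effects, U87 minus U251. Beside LAMP2 and the 5 markers, which were chosen with earlier results of these data known, genes were named only if this same test called them. That all 74 passed is therefore no separate result. Among the opposite genes with a difference below 0, the effects differed for CXCL8 by -2.48, DDIT3 by -1.28, H2AC6 by -2.23, MYEOV by -1.43 and C11orf68 by -1.41. Among the opposite genes with a difference above 0, the effects differed for SLC1A3 by 1.30, ITGB8 by 1.62, MGP by 5.61, ERMP1 by 2.33, PELI2 by 1.90, MALT1 by 1.63 and SERINC5 by 1.24. Among the genes that changed in U87 alone with a difference below 0, the effects differed for IL36B by -7.54, ELFN2 by -5.32, NKX6-1 by -4.26, NUDT11 by -4.07, MARCKSL1 by -3.99, ZNF416 by -3.88, SLC3A2 by -1.56, TRIB3 by -1.72, LAMA1 by -2.82, ITGA4 by -3.56, NDRG2 by -1.85, ANGPTL4 by -1.71, PHLDA3 by -1.21, TP53I3 by -1.35, ID4 by -2.91, INHBA by -5.10 and SNHG14 by -2.25. Among the genes that changed in U87 alone with a difference above 0, the effects differed for LAMA4 by 3.07, RARRES2 by 5.61, EFEMP1 by 4.93, ZNF253 by 4.07, ZNF431 by 3.54, ZNF85 by 3.19, CTSK by 1.38, LAMA5 by 2.69, COL6A1 by 1.60, ITGA7 by 2.25, POLA1 by 1.10, MCM10 by 1.04, CCNE2 by 1.06, NUSAP1 by 1.22, CCNB2 by 1.00 and CHRDL1 by 2.45. Among the genes that changed in U251 alone with a difference below 0, the effects differed for IL36RN by -4.38, FOLR3 by -3.43, OASL by -2.20, SCG5 by -2.15, ATF3 by -1.86, BASP1 by -1.40, MAFF by -1.31, ISG15 by -1.30 and GADD45A by -1.34. Among the genes that changed in U251 alone with a difference above 0, the effects differed for LAMP2 by 1.16, HMCN1 by 2.95, NFIB by 1.65, DENND11 by 1.43, VASN by 1.35, TSPAN9 by 1.27, DAG1 by 1.26, GFAP by 2.20 and ITGB4 by 1.49. Among the genes where neither line passed by itself with a difference below 0, the effects differed for CXCL3 by -2.17, IL1A by -2.31, USP18 by -1.63 and HLA-F by -1.36. Among the genes where neither line passed by itself with a difference above 0, the effects differed for COL4A1 by 2.95, BGN by 5.17, LOXL2 by 1.01, KIF20A by 1.03, MT-CO3 by 1.56, MT-CO2 by 1.08 and POU3F2 by 1.90.

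With control replicate 1 alone 27 of the 74 were no longer called, and their values there were 4.39 for RARRES2, -1.53 for ELFN2, -1.86 for NKX6-1, -3.29 for FOLR3, 0.72 for DENND11, 1.00 for VASN, 0.92 for DAG1, 0.94 for CTSK, -1.42 for IL1A, -0.95 for USP18, 1.35 for LAMA5, 2.46 for COL4A1, 4.46 for BGN, -1.25 for ITGA4, -0.98 for NDRG2, 0.91 for LOXL2, 0.98 for POLA1, 0.63 for KIF20A, 1.14 for NUSAP1, 0.79 for CCNB2, -0.82 for PHLDA3, -0.48 for TP53I3, -0.80 for ID4, 1.07 for CHRDL1, -2.56 for INHBA, 1.87 for POU3F2 and -0.71 for SNHG14. The 12 libraries alone ended the call of 24 of the 74, and DESeq2 that of RARRES2 and ZNF85. All 74 kept their sign under every alternative run. Which libraries these differences follow, and the part that the separation of control replicates 2 and 3 from replicate 1 has in them, was not tested beyond these values.

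Leaving out each of the 12 libraries alone ended the call of the following genes in at least 1 fit, with the range of the difference over the 12 fits and the highest adjusted p in brackets. LAMP2 was not called without U87 control replicate 1 (0.996 to 1.26, adjusted p up to 0.0326). RARRES2 was called only without U87 hairpin 1812 replicates 1, 2 and 3, U87 control replicate 1 or U251 control replicate 1 (3.13 to 7.25, adjusted p up to 0.0791). ZNF431 was called only without U87 control replicate 1 or U251 control replicate 1 (3.00 to 6.48, adjusted p up to 0.104). ZNF85 was called only without U87 control replicate 1 (2.62 to 6.31, adjusted p up to 0.121). FOLR3 was not called without U251 hairpin 1812 replicates 2 and 3 or U251 control replicates 2 and 3 (-3.81 to -3.15, adjusted p up to 0.0575). SCG5 was called only without U87 control replicate 1, U251 hairpin 1812 replicate 1 or U251 control replicate 3 (-2.46 to -1.89, adjusted p up to 0.0842). HMCN1 was not called without U251 hairpin 1812 replicate 2 (2.51 to 3.33, adjusted p up to 0.0509). DENND11 was called only without U87 hairpin 1812 replicate 2, U87 control replicate 1 or U251 control replicate 1 (1.26 to 1.71, adjusted p up to 0.0807). TSPAN9 was not called without U251 hairpin 1812 replicates 2 and 3 (1.10 to 1.46, adjusted p up to 0.0574). DAG1 was called only without U87 hairpin 1812 replicates 2 and 3, U87 control replicate 1, U251 hairpin 1812 replicate 1 or U251 control replicate 1 (1.07 to 1.53, adjusted p up to 0.0808). TRIB3 was called only without U87 control replicates 1 and 3 or U251 control replicate 1 (-2.09 to -1.44, adjusted p up to 0.0826). CXCL3 was called only without U87 hairpin 1812 replicate 1 or U87 control replicate 1 (-2.67 to -1.93, adjusted p up to 0.094). IL1A was called only without U87 control replicate 1 (-2.65 to -2.04, adjusted p up to 0.107). MAFF was called only without U87 hairpin 1812 replicate 1, U87 control replicates 2 and 3 or U251 control replicate 1 (-1.50 to -0.95, adjusted p up to 0.0708). ISG15 was called only without U87 hairpin 1812 replicate 1, U87 control replicates 1 and 3 or U251 control replicate 1 (-1.51 to -1.06, adjusted p up to 0.079). USP18 was called only without U87 control replicate 1 (-1.93 to -1.44, adjusted p up to 0.12). HLA-F was called only without U87 control replicates 1, 2 and 3, U251 hairpin 1812 replicate 3 or U251 control replicate 1 (-1.51 to -1.10, adjusted p up to 0.0683). LAMA1 was not called without U251 hairpin 1812 replicate 3 (-3.14 to -2.60, adjusted p up to 0.05). LAMA5 was not called without U87 control replicate 2, U251 hairpin 1812 replicates 2 and 3 or U251 control replicates 2 and 3 (2.04 to 2.99, adjusted p up to 0.0541). COL4A1 was called only without U87 control replicate 1 or U251 control replicate 1 (2.69 to 3.30, adjusted p up to 0.089). ITGA4 was called only without U87 hairpin 1812 replicate 3, U87 control replicate 1, U251 hairpin 1812 replicate 1 or U251 control replicate 1 (-4.06 to -3.17, adjusted p up to 0.0679). NDRG2 was called only without U87 control replicate 1, U251 hairpin 1812 replicate 2 or U251 control replicate 1 (-2.17 to -1.58, adjusted p up to 0.081). ANGPTL4 was called only without U87 hairpin 1812 replicate 2, U87 control replicates 1 and 3 or U251 control replicates 1 and 2 (-1.87 to -1.44, adjusted p up to 0.077). LOXL2 was called only without U251 hairpin 1812 replicate 1 or U251 control replicate 1 (0.90 to 1.15, adjusted p up to 0.111). MCM10 was not called without U87 hairpin 1812 replicate 1, U251 hairpin 1812 replicates 1 and 2 or U251 control replicates 2 and 3 (0.82 to 1.14, adjusted p up to 0.0604). CCNE2 was called only without U87 hairpin 1812 replicate 2, U87 control replicates 1 and 3 or U251 control replicate 3 (0.86 to 1.19, adjusted p up to 0.0814). KIF20A was called only without U87 hairpin 1812 replicate 1, U87 control replicate 1, U251 hairpin 1812 replicate 1 or U251 control replicate 1 (0.92 to 1.27, adjusted p up to 0.0832). NUSAP1 was called only without U87 control replicate 1 or U251 control replicate 1 (1.10 to 1.37, adjusted p up to 0.0981). CCNB2 was called only without U87 control replicate 1 (0.88 to 1.28, adjusted p up to 0.113). PHLDA3 was not called without U87 hairpin 1812 replicate 3, U251 hairpin 1812 replicates 1, 2 and 3 or U251 control replicate 2 (-1.50 to -1.04, adjusted p up to 0.0612). TP53I3 was called only without U87 hairpin 1812 replicate 1, U87 control replicate 1 or U251 control replicate 1 (-1.70 to -1.16, adjusted p up to 0.13). MT-CO2 was called only without U251 control replicate 1 (0.86 to 1.22, adjusted p up to 0.118). ID4 was called only without U87 hairpin 1812 replicate 1, U87 control replicate 1, U251 hairpin 1812 replicate 3 or U251 control replicate 1 (-3.56 to -2.54, adjusted p up to 0.0779). CHRDL1 was called only without U87 hairpin 1812 replicate 2, U87 control replicates 1 and 3 or U251 control replicate 1 (2.07 to 3.54, adjusted p up to 0.0737). INHBA was called only without U87 control replicate 1 or U251 control replicate 1 (-6.40 to -4.55, adjusted p up to 0.0817). POU3F2 was called only without U87 hairpin 1812 replicate 2 or U87 control replicates 1 and 3 (1.44 to 2.65, adjusted p up to 0.127). SNHG14 was called only without U87 control replicate 1 (-2.69 to -1.93, adjusted p up to 0.0945).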

How the results depend on the processing

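All 74 named genes kept the sign of their difference under all 20 alternatives, and 31 of them were called under every one. The counts of calls depended far more on the libraries. Against 545 genes called (243 above 0, 302 below), DESeq2 called 902 (367 and 535), no low count filter 1048 (444 and 604), the 12 libraries alone 285 (156 and 129), control replicate 1 alone 991 (683 and 308), a library type term for control replicates 2 and 3 1097 (475 and 622), and control replicates 2 and 3 alone, which was added once the data had been seen, 2010 (791 and 1219). The share of calls above 0 was 44.6%, and 68.9% with control replicate 1 alone, 54.7% with the 12 libraries alone, 40.7% by DESeq2 and 47.5% with DESeq2 size factors. Leaving out 1 library gave 114 to 832 calls above 0 and 97 to 1187 below 0, with the highest of both without U87 control replicate 1. The 17 opposite genes became 84, 58, 4, 29, 38 and 343 in the order given above, and 224 when defined by a log2 change of 0.5 in both lines, and 0 to 196 without 1 library. The 397 genes of U87 alone became 627 (DESeq2), 752 (no filter), 222 (12 libraries), 798 (control replicate 1), 1221 (control replicates 2 and 3) and 260 (definition by 0.5), and 179 to 1539 without 1 library. The 37 genes of U251 alone became 92 (DESeq2), 95 (no filter), 11 (12 libraries), 113 (library type term) and 187 (control replicates 2 and 3), and 8 to 100 without 1 library. List members called, 27 above and 28 below 0, became 47 and 46 without a filter, 51 above with control replicate 1 alone, 44 above with the library type term, 60 and 61 with control replicates 2 and 3 alone and 14 below with the 12 libraries alone, and without 1 library ranged over 14 to 57 above and 9 to 54 below. LAMP2 kept its direction in all, and its difference ranged from 0.996 to 1.26 without 1 library. The causes of these changes were not tested, although a filter or a library set also changes which genes and samples enter.

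Replicate numbers were not taken as pairs of hairpin and control, because the correlation of same-numbered hairpin and control libraries was 0.025, -0.092 and 0.12 in U87 and 0.21, 0.096 and 0.15 in U251, not all over 0.1. In U251 each number correlated best with itself, and in U87 the number 2 did not. Same-numbered controls of U87 and U251 correlated at 0.42, 0.26 and 0.32. With a replicate block 591 genes were called, 34 of them opposite, and all 74 named genes were still called. With 3 libraries a group, a difference that missed the threshold is not shown to be absent.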

Other observations

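In U251 a further hairpin, 1813, shared the control libraries with hairpin 1812, so its levels are given side by side and not as separate evidence. CXCL8 averaged 711 ± 172 CPM with hairpin 1813, 633 ± 54.5 CPM with hairpin 1812 and 186 ± 38.6 CPM in U251 control (SD, n = 3 each). SLC1A3 averaged 60.8 ± 1.97 CPM, 60.04 ± 1.39 CPM and 98.4 ± 5.33 CPM in the same order, and ITGB8 averaged 78.8 ± 8.15 CPM, 70.8 ± 2.31 CPM and 123 ± 3.1 CPM. For these genes the levels with both hairpins lay on the same side of the controls. LAMA4 averaged 67.7 ± 1.96 CPM with hairpin 1813, 92.6 ± 6.2 CPM with hairpin 1812 and 135 ± 15.9 CPM in control. DDIT3 averaged 41.4 ± 1.28 CPM, 56.8 ± 5.83 CPM and 34.1 ± 5.27 CPM. The stress factor ATF3 averaged 26.2 ± 1.48 CPM, 49.9 ± 0.438 CPM and 17.5 ± 2.83 CPM, and the interferon-induced gene OASL 30.9 ± 9.07 CPM, 100.02 ± 34.3 CPM and 28.9 ± 8.94 CPM, so that OASL with hairpin 1813 lay near its control level. GFAP averaged 55 ± 10.5 CPM, 17.6 ± 7.53 CPM and 116 ± 25 CPM, and every library with either hairpin lay below every control. No hairpin 1813 libraries of U87 were analysed here, so the difference between the lines was measured with 1 hairpin.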
